A study of Mus musculus with 3 samples.

Results

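The miR-23, miR-27 and miR-24 families are microRNAs (miRNAs), short RNAs that pair with partly complementary sites in messenger RNAs and lower their stability or translation. Their hairpin precursors lie side by side in a pair of clusters. The Mir23a cluster holds Mir23a, Mir27a and Mir24-2, and the Mir23b cluster holds Mir23b, Mir27b and Mir24-1. Members were chosen by name among the mature products of these hairpins, and 7 of the 627 mature miRNAs in the count table were members. Of these, 3 come from the Mir23a cluster alone (mmu-miR-23a-3p, mmu-miR-27a-3p and mmu-miR-24-2-5p) and 3 from the Mir23b cluster alone (mmu-miR-23b-3p, mmu-miR-27b-3p and mmu-miR-27b-5p), while 1 (mmu-miR-24-3p) is made by both. All 7 passed the minimum used for ratios, a normalized count of at least 10 on average over the 3 libraries, as did 587 of the 627 miRNAs.

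Ovaries of newborn CD1 mice were cultured for 3 days with di(2-ethylhexyl) phthalate (DEHP), a plasticizer, at 0, 10 or 100 μM. The 0 μM ovaries received the solvent of DEHP, DMSO. Samples carry the label postnatal day 3, which is the end of the culture. At this age germ cell cysts of the mouse ovary break down and primordial follicles form. The study asked how DEHP alters miRNAs over this period. Many ovaries were pooled for each small RNA library and there was 1 library per concentration, so each ratio compares 2 libraries, has no replicate check and carries no p-value. The libraries held 5253367 counts at 0 μM, 5064602 at 10 μM and 5952274 at 100 μM, with 1 count kept per mature miRNA. Counts were divided by the DESeq2 size factors of the libraries (1.38, 1.35 and 0.546), which gives the normalized counts used throughout. All intervals are exact 95% intervals. They cover counting error only, because each concentration has 1 library. No molecular identifiers are described in the sources used here, so reads need not stem from separate molecules. Even the counting error may therefore be understated. The tissue label was checked with miR-202, an miRNA abundant in gonads. The counts of miR-202-5p were 41367, 53172 and 9799 at 0, 10 and 100 μM, and those of miR-202-3p were 1614, 1261 and 1098, so both arms were present in every library.

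In each hairpin the strand from the 5′ side (5p) and the strand from the 3′ side (3p) can be kept, and one of them is usually far more abundant. An miRNA finds its targets mainly through its seed, bases 2 to 8, so paralogs with the same seed share many predicted targets. The miR-23, miR-27 and miR-24 families are well known from blood vessels, where they act on endothelial cells and the sprouting of new vessels. The miR-27 family is also known to repress the nuclear receptor PPARγ and the formation of fat cells, miR-23 to repress glutaminase, an enzyme of glutamine use, and miR-24 to repress genes of the cell cycle.

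In GRCm38 the Mir23a cluster lies on the plus strand of chromosome 8, in 404 bases at chr8:84208518-84208921. No protein-coding gene of GENCODE M21 overlaps it. The nearest is Zswim4, on the opposite strand 1756 bases away, and a long noncoding RNA gene, Gm26532, starts within the last 2 bases of Mir24-2. The Mir23b cluster lies on the plus strand of chromosome 13, in 792 bases at chr13:63300484-63301275. It is inside the protein-coding gene 2010111I01Rik on the same strand, and opposite to introns of Fancc, a gene of DNA crosslink repair. Mir23b is intronic in 2010111I01Rik. Mir27b lies within an exon of 1 transcript of that gene, of the nonsense-mediated-decay type, and Mir24-1 overlaps exons of 4 transcripts, none annotated as protein-coding. Positions of all 6 hairpins were the same in RefSeq and GENCODE. The map of the clusters shows the order miR-23, miR-27, miR-24 in both, with a longer stretch before Mir24-1 than before Mir24-2.

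**Figure D1:**
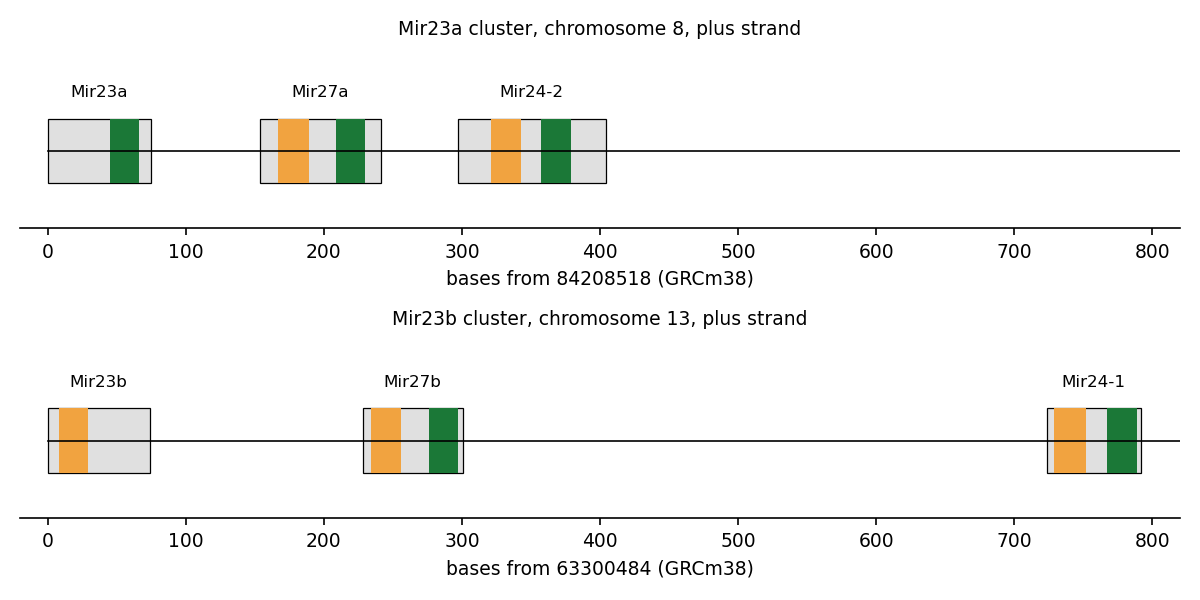
Map of the Mir23a cluster (top, chromosome 8) and the Mir23b cluster (bottom, chromosome 13) in GRCm38, drawn to one scale in bases from the first base of each cluster. Grey boxes are hairpins, orange marks 5p and green 3p mature sequences that are both in RefSeq and in the count table, and the clusters span 404 and 792 bases.

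RefSeq (GRCm38.p6) held a mature sequence for 6 of the 7 members. They are shown because the a and b paralogs are told apart by very few bases, and the capitals mark the seed. The paralogs of miR-27-3p share a seed, which differs from that of miR-23a-3p, and miR-24-3p is made in identical form by Mir24-2 and Mir24-1.
mmu-miR-23a-3p: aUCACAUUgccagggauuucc
mmu-miR-27a-3p: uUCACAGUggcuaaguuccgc
mmu-miR-27b-3p: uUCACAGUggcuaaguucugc
mmu-miR-24-3p: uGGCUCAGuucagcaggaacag
mmu-miR-24-2-5p: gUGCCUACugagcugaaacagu
mmu-miR-27b-5p: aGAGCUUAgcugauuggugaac
They lie at chr8:84208563-84208583 for miR-23a-3p, chr8:84208727-84208747 for miR-27a-3p, chr13:63300760-63300780 for miR-27b-3p, chr8:84208839-84208860 for miR-24-2-5p and chr13:63300718-63300739 for miR-27b-5p. The copies of miR-24-3p lie at chr8:84208875-84208896 and chr13:63301251-63301272. Both miR-27-3p paralogs have 21 bases, share the first 18 from the 5′ end and differ by 1 substitution, C19U, with positions counted from the 5′ end of miR-27a-3p. The Mir23b hairpin (chr13:63300484-63300557) is shown with capitals for the bases it has in common with the start of miR-23a-3p.
Mir23b hairpin: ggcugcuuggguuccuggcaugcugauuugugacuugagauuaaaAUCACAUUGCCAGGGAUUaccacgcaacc
The stretch of this hairpin most like miR-23a-3p shares its first 18 bases and differs by 1 substitution, U19A, counted from the 5′ end of miR-23a-3p. For both families, then, only a read that reaches position 19 separates the a from the b paralog. How shorter reads were assigned is not given in the sources used here, so the counts of the paralogs, and their sum if a read can be entered for both, are uncertain to that extent.

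The most abundant member was miR-27b-3p, with 108854 counts at 0 μM, 107073 at 10 μM and 57468 at 100 μM. It took 2.07%, 2.11% and 0.965% of the counts of these libraries and ranked 14, 16 and 17 among their miRNAs. The 7 members together held 155816, 156795 and 77021 counts, or 2.97%, 3.10% and 1.29%. Most counts of the clusters in every library were thus miR-27b-3p.

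Next came miR-24-3p, with 25437, 26940 and 6734 counts at 0, 10 and 100 μM, and miR-23b-3p with 8599, 9789 and 7952. Their normalized counts were 18458 (interval 18231 to 18686), 19986 (19748 to 20226) and 12337 (12044 to 12635) for miR-24-3p. For miR-23b-3p they were 6240 (6108 to 6373), 7262 (7119 to 7407) and 14569 (14250 to 14892). The order of these miRNAs differed between libraries: miR-24-3p was above miR-23b-3p at 0 and 10 μM and under it at 100 μM.

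Of the 3p arms with a paralog, those of the Mir23a cluster had fewer counts than those of the Mir23b cluster in every library. Counts of miR-23a-3p were 5016, 6341 and 3392, and normalized counts 3640 (3540 to 3742), 4704 (4589 to 4821) and 6214 (6007 to 6427). Counts of miR-27a-3p were 6721, 5852 and 1151, and normalized counts 4877 (4761 to 4995), 4341 (4231 to 4454) and 2109 (1989 to 2234). At 0 μM miR-27a-3p was the more abundant of this pair, and at 10 and 100 μM miR-23a-3p was.

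The 5p members, made from strands that are mostly discarded, were the least abundant in every library. Counts of miR-24-2-5p were 1069, 669 and 193, and normalized counts 776 (730 to 824), 496 (459 to 535) and 354 (305 to 407). Counts of miR-27b-5p were 120, 131 and 131, and normalized counts 87.1 (72.2 to 104), 97.2 (81.3 to 115) and 240.0 (201 to 285). These are the members with the widest counting intervals. No member was near the limit that 3 counts set, which was 2.18, 2.23 and 5.50 normalized counts at 0, 10 and 100 μM. Neighbours in the order of levels had intervals that did not overlap in any library. How evenly different miRNAs were captured was not measured, so this is an order of counts.

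**Figure D2:**
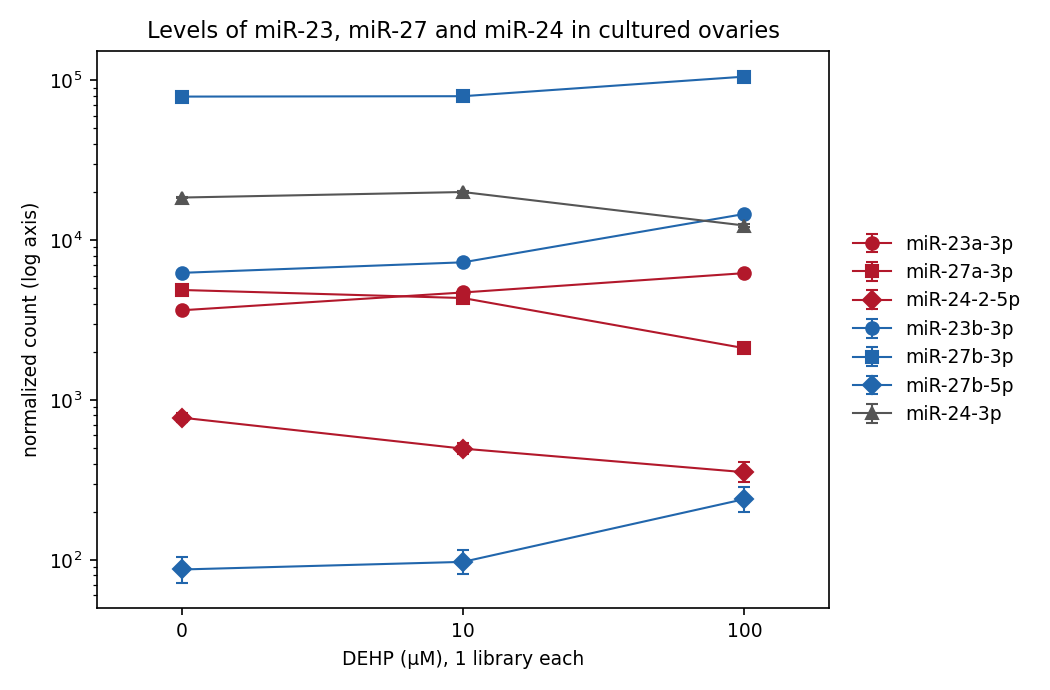
Normalized counts (log axis) of the 7 members in the 0, 10 and 100 μM DEHP libraries, 1 library each, with exact 95% Poisson intervals, red for members of the Mir23a cluster, blue for the Mir23b cluster and grey for miR-24-3p. The highest line is miR-27b-3p, between 78987 and 105285, and the lowest is miR-27b-5p, between 87.1 and 240.0, and lines cross only between miR-23a-3p and miR-27a-3p and between miR-23b-3p and miR-24-3p.

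Between 0 and 10 μM all members had log2 ratios between −0.64 and 0.37. With the size factors 5 were higher and 2 lower at 10 μM, and the same split was found with each of the other scalings between libraries that were tried. Of all 587 miRNAs, 307 were higher and 280 lower with the size factors, and more were higher than lower under the other scalings too. The highest log2 ratio was that of miR-23a-3p, 0.37 (interval 0.32 to 0.42), followed by miR-23b-3p at 0.22 (0.18 to 0.26) and miR-24-3p at 0.11 (0.090 to 0.14). Both lower members came from the Mir23a cluster. These were miR-24-2-5p at −0.64 (−0.79 to −0.50) and miR-27a-3p at −0.17 (−0.22 to −0.12). For miR-27b-5p (0.16, −0.21 to 0.53) no difference was detectable at this depth. The ratio of miR-27b-3p was 0.0081 (−0.0040 to 0.020) with the size factors, and under the other scalings it was between 0.029 and 0.069, with intervals above 0. The median of the members was 0.11, against 0.022 for all 587 miRNAs, whose quartiles were −0.37 and 0.29. None of the members passed a log2 ratio of 2 in either direction, where 4 of 587 miRNAs did (0.681%), all of them lower at 10 μM. Beyond a ratio of 1, 0 members were higher, against 1.53% of all miRNAs, and 0 were lower, against 5.11%.

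At 100 μM both clusters held products that differed from 0 μM, and not all in the same direction. With the size factors all 3 members made only by the Mir23b cluster were higher in the 100 μM library than in the 0 μM library, whereas of the 3 made only by the Mir23a cluster, miR-23a-3p was higher and miR-27a-3p and miR-24-2-5p were lower. Scaled by total counts, 6 members were lower, and for miR-27b-5p no difference was detectable at this depth (−0.053, −0.42 to 0.32). Of the arms that were not members, miR-24-1-5p of the Mir23b cluster was lower under every scaling that was tried, and miR-27a-5p of the Mir23a cluster was higher with the size factors and lower with total counts. The split of 4 higher and 3 lower became 3 and 4 when library sizes left out the 10 most abundant miRNAs, because miR-27b-3p then was lower, and miR-23a-3p then had a ratio of 0.0070 (−0.056 to 0.070), where no difference was detectable. Of all 587 miRNAs, 291 were higher and 296 lower with the size factors, 95 and 492 with total counts, and 182 and 405 with the 10 most abundant left out. Relative to the size factors, the median of all 587 miRNAs moved by −1.51 (total counts) and by −0.76 (the 10 most abundant left out), and each member moved by nearly the same amount. Which members were higher relative to others does not depend on the scaling. In bulk tissue such as these ovaries, fewer cells of a type and less RNA per cell cannot be told apart.

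Among the Mir23b cluster members the log2 ratio of 100 to 0 μM was 1.22 (1.18 to 1.27) for miR-23b-3p and 0.41 (0.40 to 0.43) for miR-27b-3p. For miR-27b-5p it was 1.46 (1.09 to 1.83), from 120 and 131 counts. As folds these are 2.33, 1.33 and 2.75. With total counts the ratios were −0.29, −1.10 and −0.053, the last with an interval that includes 0, and miR-27b-3p was also reversed, to −0.35, without the 10 most abundant miRNAs. Under both scalings miR-27b-5p had the highest of these ratios and miR-27b-3p the lowest. The unscaled share of miR-27b-3p in the library was less at 100 μM (0.965%) than at 0 μM (2.07%).

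Among the Mir23a cluster members miR-23a-3p had a ratio of 0.77 (0.71 to 0.83), a 1.71-fold higher level at 100 μM, which was −0.74 with total counts and 0.0070 when library sizes left out the 10 most abundant. In the opposite direction, miR-27a-3p had a ratio of −1.21 (−1.30 to −1.12), a 2.31-fold lower level, and miR-24-2-5p one of −1.13 (−1.36 to −0.91), 2.19-fold lower. The lower level of these miRNAs at 100 μM was found under every scaling that was tried. Its size depended on the scaling, with ratios of −2.73 for miR-27a-3p and −2.65 for miR-24-2-5p with total counts. When library sizes left out the 10 most abundant they were −1.97 and −1.90. So the hairpins Mir23a and Mir27a, which lie within 404 bases of each other, gave 3p products with opposite signs under the size factors, and with unlike ratios under any scaling.

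The product of both clusters, miR-24-3p, was lower at 100 μM under every scaling that was tried. Its log2 ratio was −0.58 (−0.62 to −0.54), which is a 1.496-fold lower level. With total counts the ratio was −2.10, and it was −1.35 when library sizes left out the 10 most abundant miRNAs. The 5p arms of both its hairpins, miR-24-2-5p and miR-24-1-5p, were lower as well. The table lists miR-24-3p once for each precursor. The counts were 25437, 26940 and 6734 in one entry and 25434, 26939 and 6734 in the other, so the entries differed by at most 3 counts and the table does not tell how much each cluster gives. The ratios of both entries were equal to 2 decimals.

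Set against the whole table, 4 of the 7 members lay outside the quartiles of all miRNAs, 2 on each side. This is near the share that quartiles leave outside by definition. Their median ratio at 100 μM was 0.41, in a range of −1.21 to 1.46, where all 587 miRNAs had a median of −0.013 and quartiles of −1.06 and 1.12. No member passed a log2 ratio of 2, and 19.8% of all miRNAs did, 61 higher and 55 lower. With total counts 3 members passed it (miR-27a-3p, miR-24-2-5p and miR-24-3p, all lower), and among all miRNAs the split became 4 higher and 213 lower, and 23 and 130 when library sizes left out the 10 most abundant. Above 1 there were 2 members, miR-23b-3p and miR-27b-5p, beside 26.7% of all miRNAs. Below −1 there were also 2, miR-27a-3p and miR-24-2-5p, beside 25.7%. With total counts no member was above 1, and miR-27a-3p, miR-24-2-5p, miR-24-3p and miR-27b-3p were below −1. When library sizes left out the 10 most abundant, again no member was above 1, and the same miRNAs except miR-27b-3p were below −1. The shares of 26.7% and 25.7% hold for the size factors only. The median of all 587 miRNAs was itself below −1 with total counts, at −1.51, and was −0.77 with the 10 most abundant left out. The highest member, miR-27b-5p, was above 83.3% of the tested miRNAs, and the lowest, miR-27a-3p, was above 22.1%.

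**Figure D3:**
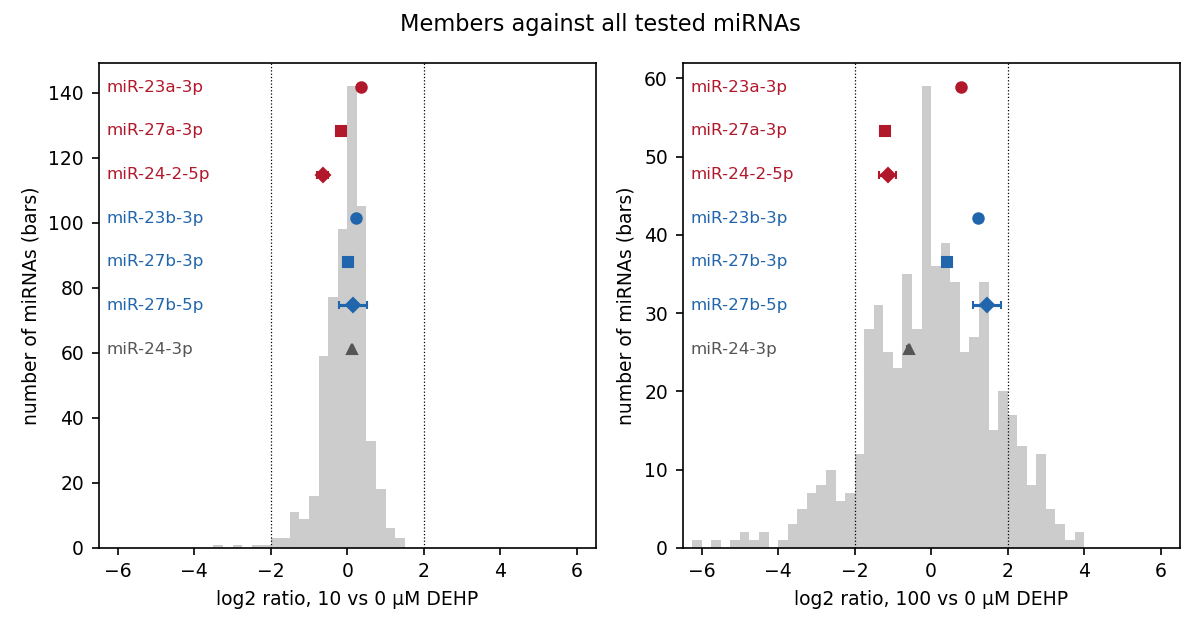
Log2 ratios of the 7 members (points, with exact 95% counting intervals) over the distribution of all 587 tested miRNAs (grey bars, number of miRNAs), for 10 against 0 μM (left) and 100 against 0 μM (right), with dotted lines at −2 and 2. The heights of the points only separate the members, and at 100 μM 4 lie above 0 and 3 below with the size factors shown, while with total counts 6 are below 0 and the interval of miR-27b-5p includes 0. Of all 587 miRNAs, 296 are below 0 at 100 μM with the size factors and 492 with total counts.

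The comparison of 100 with 10 μM shares the 100 μM library with the one above, so it is no independent check. Its ratios were 1.0 (0.96 to 1.05) for miR-23b-3p, 1.30 (0.94 to 1.66) for miR-27b-5p, 0.41 (0.39 to 0.42) for miR-27b-3p and 0.40 (0.34 to 0.46) for miR-23a-3p. Lower at 100 μM were miR-27a-3p at −1.04 (−1.13 to −0.95), miR-24-3p at −0.70 (−0.73 to −0.66) and miR-24-2-5p at −0.49 (−0.73 to −0.26). The split was again 4 higher and 3 lower, and became 0 and 7 with total counts (for miR-27b-5p with an interval that includes 0), and 2 and 5 when the 10 most abundant miRNAs were left out. All miRNAs were split into 288 higher and 299 lower with the size factors, 106 and 481 with total counts, and 195 and 392 leaving out the 10 most abundant. The median of the members was 0.40, against −0.034 for all miRNAs. Members beyond 2 numbered 0 (3 with total counts, all lower), beside 21.0% of all miRNAs, 72 of which were higher and 51 lower (8 and 226 with total counts, 24 and 119 leaving out the 10 most abundant). Beyond 1, 2 members were higher, beside 29.5% of all miRNAs, and 1 was lower, beside 24.7%. With total counts no member was above 1, and all but miR-23b-3p and miR-27b-5p were below −1. Leaving out the 10 most abundant, none was above 1, and miR-27a-3p, miR-24-2-5p and miR-24-3p were below −1. The shares of 29.5% and 24.7% hold for the size factors only. The median of all miRNAs was itself −1.56 with total counts and −0.83 leaving out the 10 most abundant. Just inside these limits were miR-27a-3p with TMM (−0.99) and miR-23b-3p with upper-quartile scaling (0.96).

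Ratios of a to b paralogs within a library compare single products of both clusters without any scaling between libraries. Of all miR-27-3p counts, miR-27a-3p made up 5.82% (5.68 to 5.95) at 0 μM, 5.18% (5.05 to 5.31) at 10 μM and 1.96% (1.85 to 2.08) at 100 μM. There were 16.2, 18.3 and 49.9 counts of miR-27b-3p for each count of miR-27a-3p. The b paralog thus dominated in every library, and most at 100 μM. The log2 odds ratio of a to b was −1.62 (−1.72 to −1.53) between 100 and 0 μM and −1.45 (−1.54 to −1.36) between 100 and 10 μM, and much nearer 0, at −0.18 (−0.23 to −0.12), between 10 and 0 μM.

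For miR-23 the 3p counts of the paralogs were nearer to balance. Of all miR-23-3p counts, miR-23a-3p made up 36.8% (36.0 to 37.7) at 0 μM, 39.3% (38.6 to 40.1) at 10 μM and 29.9% (29.1 to 30.8) at 100 μM, with 1.71, 1.54 and 2.34 counts of the b paralog for each count of the a paralog. The share of the a paralog was highest at 10 μM and lowest at 100 μM. Between 100 and 0 μM the log2 odds ratio was −0.45 (−0.53 to −0.37), and between 100 and 10 μM −0.60 (−0.68 to −0.53). Between 10 and 0 μM it was 0.15 (0.083 to 0.22). In both families, therefore, the a paralog held a smaller share at 100 μM than at 0 μM, by a larger factor for miR-27 than for miR-23. At 10 μM the families differed in sign.

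Summed over paralogs, the miR-23-3p family had 13615, 16130 and 11344 counts at 0, 10 and 100 μM, or 9879, 11966 and 20783 normalized counts. The miR-27-3p family had 115575, 112925 and 58619 counts, or 83864, 83776 and 107393 normalized counts. Between 100 and 0 μM the log2 ratio was 1.07 (1.04 to 1.11) for miR-23-3p, which turned to −0.44 with total counts and was 0.31 with the 10 most abundant left out. For miR-27-3p it was 0.36 (0.34 to 0.37), which turned to −1.16 with total counts and to −0.41 when the 10 most abundant miRNAs were left out. The lower level of miR-27a-3p hardly shows in the sum, since miR-27b-3p makes up nearly all of it.

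The 5p arms allow the same comparison with sequences that differ more between the clusters. They include arms that were not members, and their ratios were chosen after seeing the data. The sequences of the 5p arms of Mir27a (chr8:84208685-84208706) and Mir24-1 (chr13:63301213-63301235) are shown beside those of their paralogs to give these differences, again with the seed in capitals.
mmu-miR-27a-5p: aGGGCUUAgcugcuugugagca
mmu-miR-27b-5p: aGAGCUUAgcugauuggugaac
mmu-miR-24-2-5p: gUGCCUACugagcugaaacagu
mmu-miR-24-1-5p: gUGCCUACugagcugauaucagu
The 5p arms of Mir27a and Mir27b differ at 8 of 22 positions, the seed included. Those of Mir24-2 and Mir24-1 share the first 16 bases from the 5′ end.

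Counts of miR-27a-5p were 579, 552 and 492 at 0, 10 and 100 μM, and normalized counts 420.1, 409.5 and 901. Of the miR-27 5p counts it made up 82.8% (79.8 to 85.6), 80.8% (77.7 to 83.7) and 79.0% (75.6 to 82.1). While the 3p arms of these hairpins were split strongly in favour of Mir27b, the 5p arms were split in favour of Mir27a, in every library. The log2 odds ratio of miR-27a-5p to miR-27b-5p between 100 and 0 μM was −0.36 (−0.77 to 0.050), so no difference of this split was detectable at this depth. It lay outside the interval found for the 3p arms, −1.72 to −1.53.

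Within the Mir27a hairpin the arms took opposite signs at 100 μM under the size factors. The 5p arm had a log2 ratio of 1.10 (0.92 to 1.28) to 0 μM, which was −0.41 with total counts and 0.34 with the 10 most abundant left out, and the 3p arm one of −1.21. The 5p arm made up 7.93% (7.32 to 8.58) of the counts of both arms at 0 μM, 8.62% (7.94 to 9.33) at 10 μM and 29.9% (27.7 to 32.2) at 100 μM. Its share was several times as large at 100 μM as at 0 or 10 μM. The log2 odds ratio of 5p to 3p was 2.31 (2.11 to 2.51) between 100 and 0 μM, and 0.13 (−0.048 to 0.31) between 10 and 0 μM.

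The Mir27b hairpin showed a difference in the same direction. Its 5p arm, miR-27b-5p, made up 0.110% (0.0913 to 0.132) of the counts of both arms at 0 μM, 0.122% (0.102 to 0.145) at 10 μM and 0.227% (0.190 to 0.270) at 100 μM. The log2 odds ratio was 1.05 (0.68 to 1.42) between 100 and 0 μM, 0.90 (0.54 to 1.26) between 100 and 10 μM, and 0.15 (−0.22 to 0.52) between 10 and 0 μM. So in both Mir27 hairpins the 5p share was higher in the 100 μM library. These ratios do not depend on the scaling between libraries.

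For miR-24 the 5p arm tells the hairpins apart, which the 3p arm does not. Counts of miR-24-1-5p, from the Mir23b cluster, were 81, 47 and 11, beside 1069, 669 and 193 for miR-24-2-5p. The arm from Mir24-2 made up 93.0% (91.3 to 94.4), 93.4% (91.4 to 95.1) and 94.6% (90.6 to 97.3) of both at 0, 10 and 100 μM. The log2 odds ratio between 100 and 0 μM was 0.41 (−0.54 to 1.5), so no difference was detectable at this depth, which with 11 counts is low. Both 5p arms were lower at 100 μM than at 0 μM under every scaling that was tried, miR-24-1-5p by a log2 ratio of −1.52 (−2.60 to −0.63). With the size factors the Mir24-1 arm thus had the opposite sign to miR-23b-3p and miR-27b-3p of its own cluster, and with total counts all of them were lower.

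Relative to miR-24-3p, miR-24-2-5p made up 4.03% (3.80 to 4.28) of the counts of both at 0 μM, 2.42% (2.24 to 2.61) at 10 μM and 2.79% (2.41 to 3.20) at 100 μM. It held its largest share at 0 μM. Here the 10 μM library stood apart from the 0 μM library, with a log2 odds ratio of −0.76 (−0.90 to −0.62). Between 100 and 0 μM it was −0.55 (−0.78 to −0.33), and between 100 and 10 μM, at 0.21 (−0.035 to 0.44), no difference was detectable at this depth. Since miR-24-3p comes from both clusters, this is not the arm ratio of 1 hairpin.

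**Figure D4:**
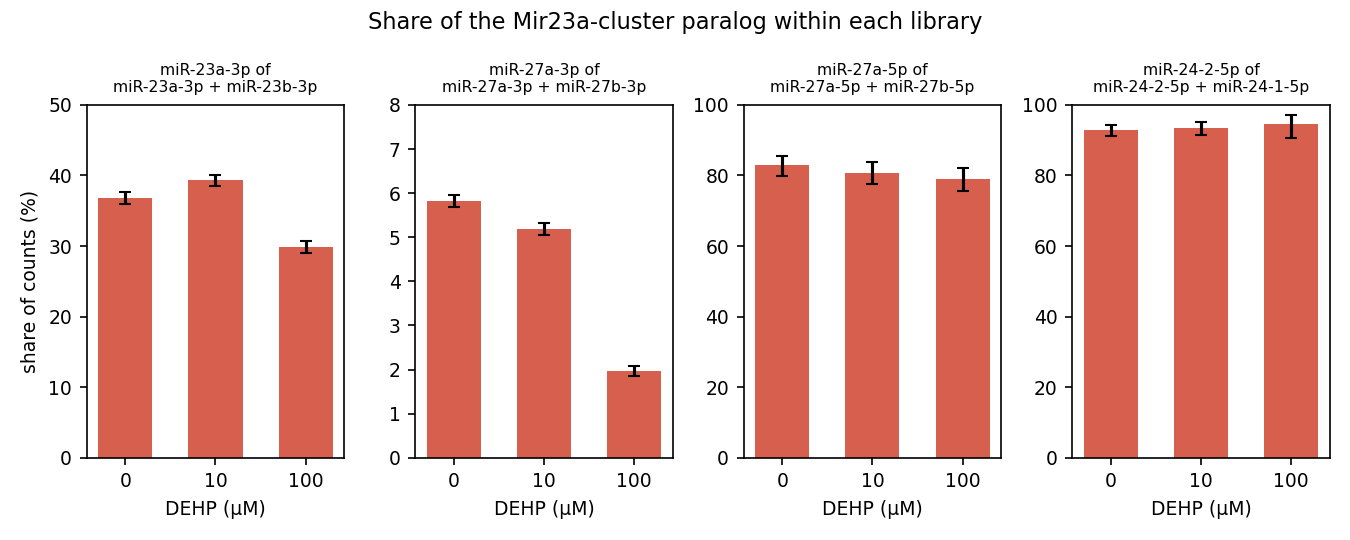
Share (%) of the Mir23a cluster product in the summed counts of each paralog pair, in the 0, 10 and 100 μM DEHP libraries, 1 library each, with exact 95% Clopper-Pearson intervals and a separate axis from 0 in each panel. For miR-27-3p the share was 5.82%, 5.18% and 1.96%, and for miR-23-3p 36.8%, 39.3% and 29.9%, while the intervals of the 5p pairs overlap across the libraries.

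Of the remaining arms, miR-23b-5p had 17, 37 and 9 counts. Its log2 ratio was 1.12 (0.29 to 2.08) between 10 and 0 μM and 0.40 (−0.93 to 1.66) between 100 and 0 μM, the latter with an interval that includes 0 and −1.05 with total counts. The 5p arm of Mir23a was not among the 627 miRNAs of the table. On the strand opposite to Mir24-2 and Mir24-1 lie Mir3074-2 and Mir3074-1. Their product miR-3074-5p had 51, 30 and 6 counts, few beside those of miR-24-3p.

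Seeds could be compared for the 529 of the 627 miRNAs with a mature sequence in RefSeq. Among these, beside the paralogs, miR-128-3p and miR-673-5p hold the 6 bases 2 to 7 of miR-27-3p within their own first 8 bases, as the following sequences show, with their own seed in capitals.
mmu-miR-128-3p: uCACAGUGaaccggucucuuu
mmu-miR-673-5p: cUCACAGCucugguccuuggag
Counts of miR-128-3p, an miRNA best known from neurons, were 1006, 1034 and 362, and normalized counts 730.0, 767 and 663, which is far under miR-27b-3p in every library. Its log2 ratio between 100 and 0 μM was −0.14 (−0.32 to 0.036), with an interval that includes 0, but −1.65 with total counts and −0.90 when library sizes left out the 10 most abundant miRNAs. Counts of miR-673-5p were 14, 21 and 5.

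The miRNAs most like each member were looked for among 374 with an average normalized count of 100 or more, by the distance between their pairs of log2 ratios (10 to 0 and 100 to 0 μM). With 3 libraries such a likeness rests on 2 ratios only. Nearest to miR-27a-3p were miR-362-5p (distance 0.021) and miR-203-3p (0.085), the latter known from skin. Nearest to miR-24-2-5p were miR-210-3p (0.038), the miRNA best known for its response to low oxygen, and miR-872-5p (0.19). The counts of miR-210-3p were 18893, 11959 and 3497, so it was lower at each higher concentration, as miR-24-2-5p was. For miR-24-3p they were miR-214-3p (0.088), a product of mesenchymal cells, and miR-130a-3p (0.089). For miR-23a-3p they were let-7e-3p (0.051) and miR-379-3p (0.11), and for miR-23b-3p miR-30b-3p (0.092) and miR-335-3p (0.11). For miR-27b-3p they were miR-146a-5p (0.033), known from innate immunity, and miR-700-5p (0.041), and for miR-27b-5p miR-501-3p (0.068) and miR-330-3p (0.087). None of these was another member of the clusters.

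Since the families are well known from blood vessels, markers of vessel cells are given beside them. Both listed endothelial miRNAs, miR-126a-3p and miR-126a-5p, were in the table, with 54626, 59970 and 4970 counts for miR-126a-3p, the more abundant, and 9002, 10463 and 409 for miR-126a-5p. Their sum was 46170, 52252 and 9855 normalized counts at 0, 10 and 100 μM. It was lower at 100 μM, with a log2 ratio of −2.23 to 0 μM (−3.74 with total counts), under every scaling that was tried. This is the direction of miR-27a-3p, miR-24-2-5p and miR-24-3p and, with the size factors, the opposite of miR-23a-3p and the Mir23b cluster members. The part of endothelial cells in these differences was not tested.

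Both listed miRNAs of smooth muscle and pericytes were also present, miR-143-3p with 288159, 218413 and 432017 counts and miR-145a-5p with 7377, 11215 and 1271. Their sum, nearly all miR-143-3p, was 214447, 170354 and 793809 normalized counts, with a log2 ratio of 1.89 between 100 and 0 μM (0.37 with total counts) and a higher level at 100 μM under every scaling that was tried. The markers went opposite ways, with 1.92 for miR-143-3p and −1.20 for miR-145a-5p. The products of these neighbouring hairpins thus did not move together, and neither did miR-23a-3p and miR-27a-3p. Other neighbours among the members shared a sign, such as miR-27a-3p and miR-24-2-5p, both lower at 100 μM. The part of these cells in the members' differences was not tested.

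All 6 listed miRNAs of germ cells and pluripotent cells, from the miR-290 cluster, were in the table. Their sum was 2614, 1901 and 5507 normalized counts, with a log2 ratio of 1.07 between 100 and 0 μM that turned to −0.44 with total counts and was 0.31 with the 10 most abundant left out. The most abundant of them was miR-293-3p at 0 and 10 μM, with 1509, 925 and 531 counts, and miR-294-3p at 100 μM, with 463, 358 and 1192. Between 100 and 0 μM 4 of the 6 were higher with the size factors, miR-294-3p by a ratio of 2.70, miR-292a-3p by 1.16, miR-295-3p by 0.97 and miR-291a-3p by 0.93. With total counts only miR-294-3p of these was higher (1.18). The others were lower with the size factors, miR-293-3p at −0.17 and miR-290a-5p at −0.69 with an interval of −2.15 to 0.51, so the higher sum with the size factors was in large part miR-294-3p. The sum of the gonadal miR-202 arms was 31188, 40382 and 19964 normalized counts, with log2 ratios of 0.37 between 10 and 0 μM and −0.64 between 100 and 0 μM (−2.16 with total counts). Its arms also went opposite ways at 100 μM with the size factors, miR-202-5p by −0.74 and miR-202-3p by 0.78, the latter −0.74 with total counts and 0.016 when the 10 most abundant miRNAs were left out. None of these markers was at 0 in any library, and their part in the members' differences was not tested.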

How the data were processed

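Small RNA of pooled cultured ovaries was sequenced, with 1 library for each of 0, 10 and 100 μM DEHP. The authors trimmed adapters and low-quality bases, aligned reads to the mouse genome with bowtie2, quantified miRNAs with miRDeep2 and deposited whole-number counts without normalization. Versions of these tools and the miRBase release are not given in the sources used here. The authors used DESeq2 for normalization in their own tests, after these counts, and the submitters' processing notes name mm10. The deposited table has 961 entries for 627 mature miRNAs. The entry with the highest total was kept for each of 79 miRNAs with several. In the 0 μM library the lowest count was 10, so miRNAs seen only after DEHP may be missing.

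In R 4.3.3, DESeq2 1.42.0 gave the size factors, and edgeR 4.0.16 the TMM and upper-quartile alternatives. Ratios were computed in Python 3.11.15 with scipy 1.17.1. They are log2 ratios of normalized counts with 0.5 added, for a mean of at least 10, and beyond 2 counts as past the threshold. Intervals are exact Poisson for levels, Clopper-Pearson for shares and for the split of 2 counts, and conditional exact for odds ratios. No p-value was computed, because no concentration has a replicate. The scripts were tested on simulated data. The miRNAs named are the members, the other arms of their hairpins, miRNAs sharing bases 2 to 8, or bases 2 to 7 within their first 8, the 2 nearest in pattern to each member, and cell type markers. Members and lists were chosen with earlier results of these data known. Annotation was GENCODE M21 and sequences were from RefSeq GRCm38.p6. A RefSeq mature sequence was found for 529 of the 627 miRNAs.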

Additional observations from a re-analysis of the deposited data

How the results depend on the processing

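The alternatives were TMM, upper-quartile and total-count scaling, library sizes that leave out the 10 most abundant miRNAs, an addition of 1 normalized count, another or summed entries per miRNA, a minimum mean of 100 or none, and a threshold of 1, and all were run. Of 147 member ratios under alternatives, 99 lay within the counting interval of the reported value, 37 moved beyond it with the same sign or from an interval that includes 0, and 11 were reversed. Among these 11 were the total-count ratios of miR-27b-5p for 100 to 0 and 100 to 10 μM, whose own intervals include 0. With total counts the ratio of 100 to 0 μM was −0.74 for miR-23a-3p, −0.29 for miR-23b-3p, −1.10 for miR-27b-3p, −0.053 for miR-27b-5p (interval −0.42 to 0.32) and −0.41 for miR-27a-5p, and that of 100 to 10 μM was −1.14, −0.53, −1.13, −0.23 and −0.40. Without the 10 most abundant miRNAs it was −0.35 for miR-27b-3p between 100 and 0 μM, and −0.40 for both miR-27b-3p and miR-23a-3p between 100 and 10 μM. The cause was not tested. Members beyond 2 numbered 3 with total counts between 100 and 0 μM (miR-27a-3p −2.73, miR-24-2-5p −2.65 and miR-24-3p −2.10) and 3 between 100 and 10 μM, against 0. Beyond 1 they numbered 4 and 3. Of all miRNAs, 116 passed 2 between 100 and 0 μM, 217 with total counts, 75 at a mean of at least 100 and 308 at a threshold of 1. Between 100 and 10 μM these were 123, 234, 81 and 318. Between 10 and 0 μM they were 4, 1 at a mean of at least 100, 9 without a minimum and 39 at a threshold of 1. The changes of paralog and arm ratios do not depend on the scaling. They stayed within the reported intervals with 0.5 counts added, and summed entries returned the same value for 18 of 21, since these miRNAs have 1 entry, so this is no check of them. The ratios of miR-27a-5p to miR-27a-3p and of the 5p paralogs were chosen after seeing the data. No paired analysis was possible because each concentration has 1 library, so leaving out a replicate was not possible either. At 100 μM the members had 77021 counts, and the least deeply counted, miR-27b-5p and miR-24-2-5p, have the widest intervals.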

Other observations

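Markers of other cell types were also listed. Of 4 red blood cell miRNAs 3 were in the table, miR-451a with 165, 177 and 54 counts at 0, 10 and 100 μM, miR-144-3p with 16, 3 and 2, and miR-486a-5p, the most abundant, with 1126, 1180 and 400. Their sum was 948, 1009 and 835 normalized counts, with a log2 ratio to 0 μM of 0.089 at 10 μM and of −0.18 at 100 μM, which became −1.70 with total counts and −0.95 when library sizes left out the 10 most abundant miRNAs. All 3 leukocyte miRNAs were present, and the most abundant was miR-142a-5p. Their sum was 241, 153 and 40 counts, or 175, 114 and 73.3 normalized counts, and was lower at 10 μM (−0.62) and at 100 μM (−1.25) than at 0 μM under every scaling that was tried. With the size factors the lower sum at 100 μM lay in the arms of miR-142a, while the third miRNA, miR-223-3p, had 31.2, 31.9 and 31.1 normalized counts, with a ratio of −0.0026 between 100 and 0 μM that was 0.075 with TMM, 0.012 with upper-quartile scaling, −1.49 with total counts and −0.75 with the 10 most abundant left out. Both miRNAs of striated muscle were present, nearly all of it miR-1a-3p. Their sum was 365, 261 and 258 counts, or 265, 194 and 473 normalized counts, with a log2 ratio of 0.83 between 100 and 0 μM that turned to −0.68 with total counts and was 0.071 with the 10 most abundant left out. The part of these cells in the differences of miR-23, miR-27 and miR-24 was not tested.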
